A study of Rattus norvegicus with 16 samples.

Results

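The genes described here are 53 androgen-responsive genes, chosen by name as a fixed list of genes whose mRNA is known to respond to androgen in prostate cells, with the lipid synthesis, endoplasmic reticulum and polyamine genes left out. All 53 were found among the 19711 gene names shared by the 2 deposited count tables; Selenop and Gucy1a1 stand in the later table under the older symbols Sepp1 and Gucy1a3. Each of the 16 libraries holds mRNA of the ventral prostate, the main androgen-dependent prostate lobe of the rat. The animals were offspring of dams on a 6% protein diet through gestation and lactation (GLLP) or of dams on a normal diet with 17% protein (CTR), taken at postnatal day (PND) 540 or 21. There were 4 GLLP and 5 CTR libraries at PND540, and 3 GLLP and 4 CTR libraries at PND21. No drug, hormone or castration is named in the labels, serum androgen was not among the data used here. Litter is not stated in the labels. A p-value here sets a group difference against the scatter of these libraries and takes them as independent, which could not be checked for litter.

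Androgens act through the androgen receptor, a transcription factor held in a chaperone complex until it binds its hormone, which then moves to the nucleus and binds hormone response elements, many of them far from the genes they regulate. In the ventral prostate, testosterone from the testis is converted to the stronger dihydrotestosterone by 5-alpha-reductases, and the receptor maintains both the secretory epithelium and its growth. Genes that respond to it serve many tasks: protein and sugar modification for secretion, ion and solute transport, feedback on steroid receptors, transcription elongation and cell division. Several of them, such as Fkbp5, Zbtb16 and Sgk1, also respond to glucocorticoids.

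Values are given as CPM (read counts scaled to a common library size), scaled for all 16 libraries together by the trimmed mean of M-values (TMM) method, with the SD over libraries. A gene was called changed where edgeR's quasi-likelihood test, run over all genes and adjusted by Benjamini-Hochberg, gave an adjusted p under 0.05, and every adjusted p below is from that test. Of the 53 genes, 52 passed the filter on low counts in each comparison. Mak, a kinase first described in male germ cells, did not: it lay at 0 to 0.0677 CPM in GLLP and 0 to 0.0681 CPM in CTR at PND540, and at 0.287 to 0.467 CPM in GLLP and 0.134 to 0.41 CPM in CTR at PND21.

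Library totals ran from 28748604 to 39161666 counts. Luminal keratins and other luminal epithelial markers (10 of 10 found) summed to 9030.3 to 11613 CPM in GLLP and 10116 to 14663 CPM in CTR at PND540, and to 5326 to 5611 and 6469 to 8214 CPM in GLLP and CTR at PND21, so luminal markers of the labelled gland were present in every library. Seminal vesicle markers (2 of 5 found) summed to 0.168 CPM at most. CTR replicate 5 of PND540 stood apart: 40 of the 52 genes (76.9%) were beyond the extremes of the other 8 old libraries, against 67.7% of 14163 tested genes, and 31 (59.6%) were below them, against 35.3% of tested genes. At PND21, GLLP replicate 4 had 21 of 52 (40.4%) beyond the other 6 libraries, against 52.3% of tested genes, and 18 (34.6%) below them, against 28.9%. CTR replicate 4 had 24 of 52 (46.2%) beyond the other libraries of that age, against 32.9% of tested genes. There 17 of the 52 genes lay above them, a larger share than the 16.7% of tested genes, and 7 (13.5%) below them, against 16.2%. The tables list 24218 entries at PND540 and 28688 at PND21, so their gene annotations differ. The collagen gene Col1a2, for example, had 5.8 ± 3.65 and 4.34 ± 3.6 CPM in GLLP and CTR at PND540 and 0.0831 ± 0.0223 and 0.0822 ± 0.0439 CPM at PND21, while its partner chain Col1a1 had 66.4 ± 35.9, 40.4 ± 27.7, 3053 ± 539 and 1979 ± 376 CPM. A difference in counting can therefore be part of any single age effect below and cannot be told apart from it.

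**Figure D1:**
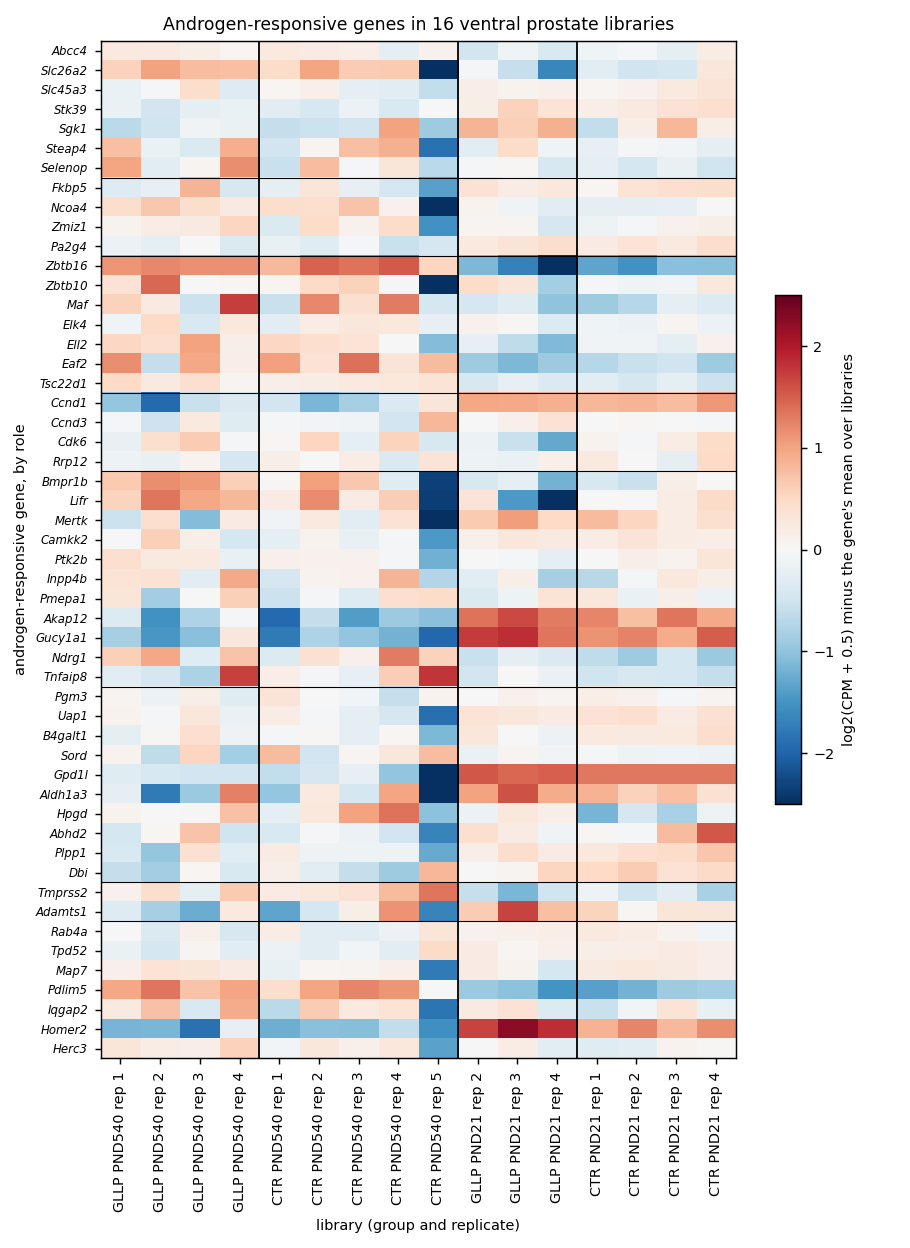
Each row is an androgen-responsive gene that passed the filter (52), grouped by role, and each column a library. Colour is log2(CPM + 0.5) less the gene's mean over the 16 libraries, so the low column of CTR PND540 replicate 5, where 31 genes lay below all other libraries of that age, and the genes that separate PND540 from PND21 can be seen.

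**Figure D2:**
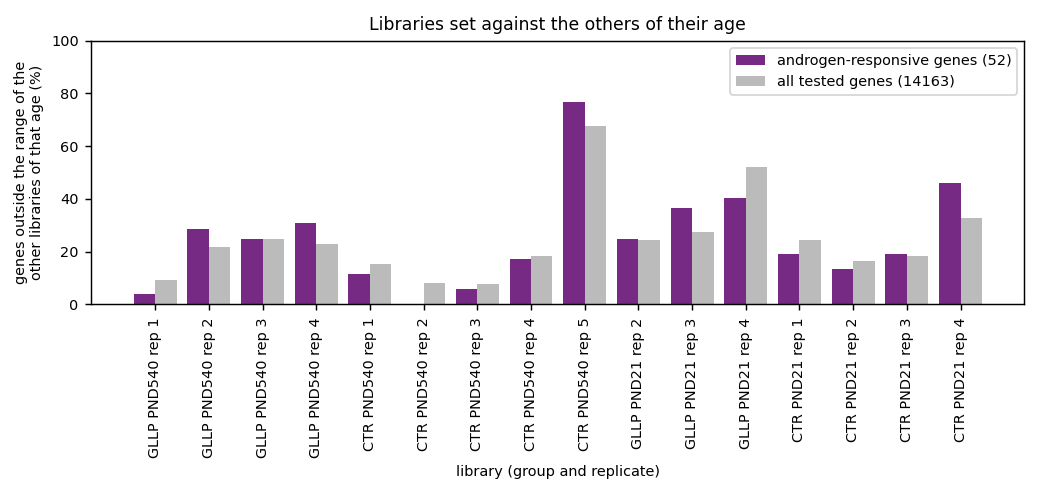
Bars give, for each library, the percentage of the 52 androgen-responsive genes (purple) and of 14163 tested genes (grey) beyond the extremes of the other libraries of that age. CTR PND540 replicate 5 is highest with 76.9% and 67.7%.

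The comparison of PND540 with PND21 shows how expression of these genes differs between the mature, ageing gland and the gland before puberty. In GLLP, 20 of 52 genes (38.5%) changed, 11 higher and 9 lower, and in CTR 13 of 52 (25%) changed, 6 higher and 7 lower. Scaled by library size alone, which put the median of all genes at -0.16, GLLP gave 8 higher (15.4%, against 14.3% of all genes) and 15 lower (28.8%, against 21.3% of all genes). Among all tested genes 36.2% were called in GLLP and 30.5% in CTR (19.1% higher and 17.1% lower in GLLP, 17.3% and 13.2% in CTR), so the shares of the androgen-responsive genes lay near this background. Groups of the 2 ages did not overlap for 22 of 52 genes in GLLP (12 above and 10 below; 42.3%, against 44.7% of all genes, 22.8% above and 21.9% below) and for 20 of 52 in CTR (7 above and 13 below; 38.5%, against 37.7% of all genes, 18.8% above and 19% below). The median log2 fold change was 0.14 in GLLP and -0.03 in CTR, beside 0.02 and 0.07 over all genes. Of the called genes, 12 were called in the same direction in both, which is 60% of the GLLP calls and 92.3% of the CTR calls (63.1% and 75.8% over all genes). These were Zbtb16, Pdlim5, Eaf2, Tmprss2, Ndrg1 and Tsc22d1, higher at PND540, and Homer2, Gucy1a1, Akap12, Ccnd1, Stk39 and Pa2g4, lower at PND540.

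**Figure D3:**
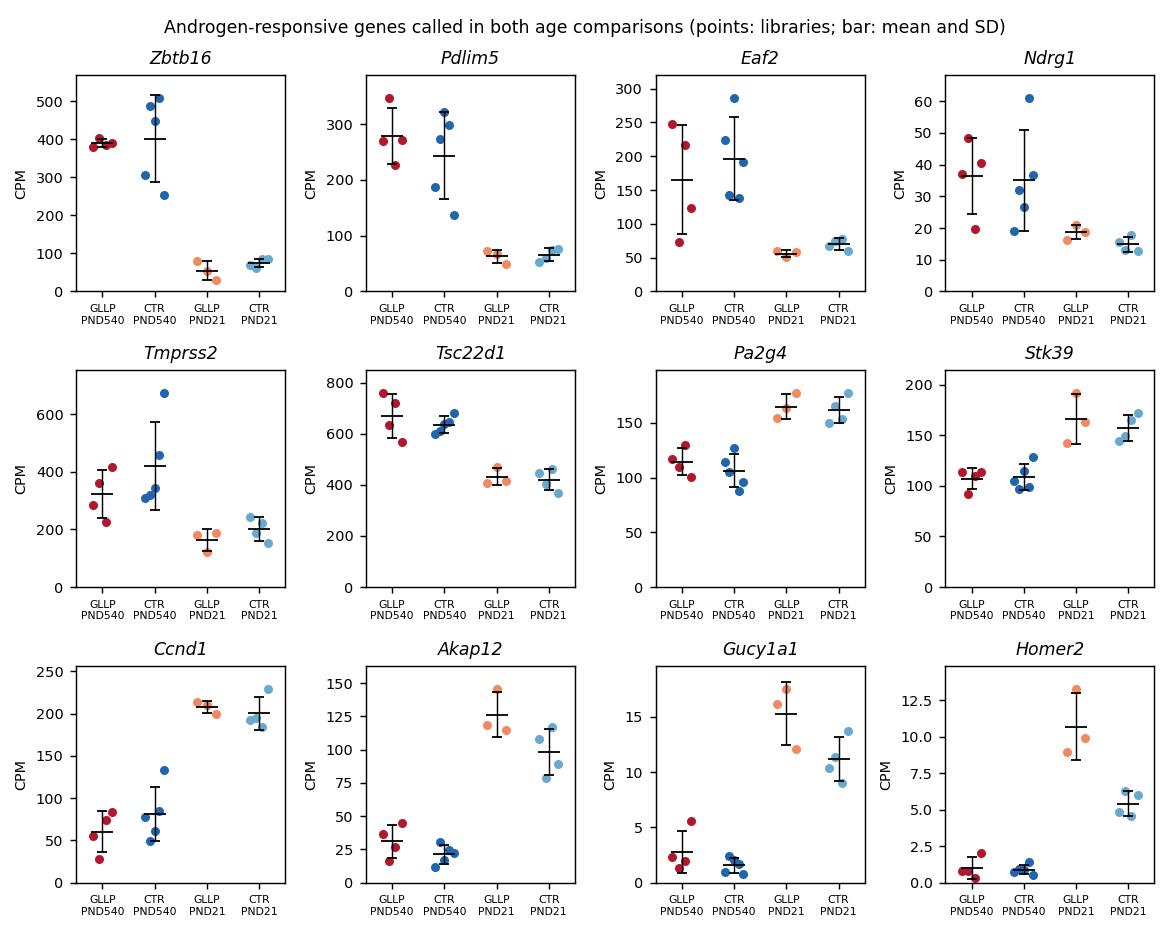
Each panel is a gene called in both age comparisons, points are libraries in CPM from 0, and the black bars give the mean and SD of the group. The groups run from GLLP PND540 over CTR PND540 and GLLP PND21 to CTR PND21. The first 6 panels were higher and the last 6 lower at PND540.

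**Figure D4:**
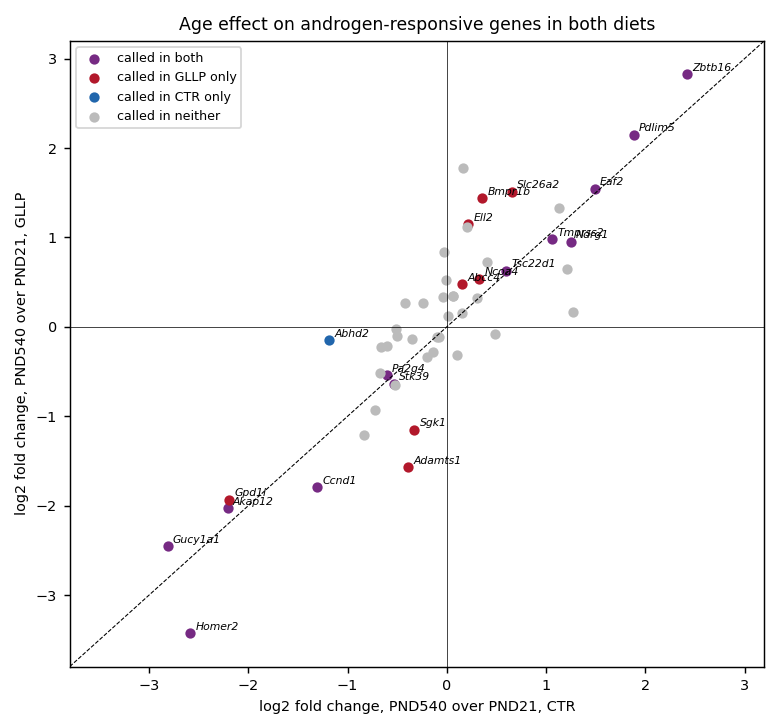
The log2 fold change of PND540 over PND21 in GLLP (vertical axis) is set against that in CTR (horizontal axis) for 52 genes, coloured by the comparison in which each was called. The dashed line marks equal values, and the 12 genes called in both lie in the upper right and lower left quadrants.

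The transcription and elongation factors held the gene with the largest rise of the list in both diets. Zbtb16 (PLZF), a zinc finger repressor that limits proliferation, stood at 379, 404, 386 and 389 CPM in GLLP at PND540, against 80.2, 54.4 and 29.8 CPM in GLLP at PND21. In CTR it stood at 306, 488, 449, 509 and 254 CPM at PND540, against 69.9, 61.4, 84.6 and 84.7 CPM at PND21. The ages did not overlap in either diet, and the 4 GLLP libraries of PND540 lay closer together than those of any other group of this gene. With age it rose 7.08-fold in GLLP (log2 2.82, SE 0.30; adjusted p = 0.000178) and 5.35-fold in CTR (log2 2.42, SE 0.26; adjusted p = 0.000112).

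Eaf2, a partner of the ELL elongation factors first found as an androgen-induced transcript of the rat ventral prostate, had 248, 73, 216 and 124 CPM in GLLP at PND540, against 59.1, 50.7 and 58.6 CPM at PND21. CTR glands had 224, 143, 286, 138 and 191 CPM at PND540, against 67.7, 75.2, 78 and 59.8 CPM at PND21. GLLP replicate 2 of PND540 lay well below the other old glands yet above every young GLLP gland. Eaf2 rose 2.92-fold in GLLP (adjusted p = 0.0121) and 2.81-fold in CTR (adjusted p = 0.00132), and without GLLP replicate 3 of PND21 the adjusted p in GLLP was 0.0508.

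Ell2, an elongation factor of RNA polymerase II that Eaf2 can bind, had 173, 161, 241 and 133 CPM in GLLP at PND540, against 105, 77.4 and 55.9 CPM at PND21, and rose 2.21-fold (adjusted p = 0.00762). The CTR values were 173, 160.5, 152, 119.6 and 56.3 CPM at PND540, against 113, 112, 101 and 129 CPM at PND21, and did not pass (log2 fold change 0.22, adjusted p = 0.606). CTR replicate 5 was the low library there, and without it the adjusted p was 0.0218 with a log2 fold change of 0.40. The difference of the age effects between the diets did not pass (log2 difference 0.94, SE 0.42, adjusted p = 0.738).

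Tsc22d1, a leucine zipper protein induced by TGF-beta, averaged 670.1 ± 85.8 and 636 ± 32.4 CPM in GLLP and CTR at PND540, and 432 ± 33.3 and 421 ± 42.6 CPM at PND21, and rose 1.54-fold in GLLP and 1.51-fold in CTR (adjusted p = 0.0147 and 0.0124). Without GLLP replicate 2 or 4 of PND21 its adjusted p in GLLP was 0.0588 or 0.054, and without CTR replicate 2 or 4 of PND21 it was 0.0527 or 0.0573 in CTR. Of the other factors, the basic leucine zipper gene Maf had log2 fold changes of 1.32 in GLLP and 1.13 in CTR that did not pass (adjusted p = 0.0659 and 0.0737). The ETS factor gene Elk4 (0.16 and 0.15) and the zinc finger gene Zbtb10 (0.52 and -0.01) lay nearer to 0 and did not pass.

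Among the scaffold and trafficking genes, opposite moves were seen. Pdlim5, which ties kinases to the actin cytoskeleton, had 269.6, 348, 228 and 272 CPM in GLLP at PND540, against 72.1, 67.6 and 48.5 CPM at PND21. For CTR the values were 187, 274, 321, 298 and 137 CPM at PND540, against 53.3, 60.9, 74 and 76.6 CPM at PND21. Every old gland was above every young gland, and the rise was 4.43-fold in GLLP (adjusted p = 9.45e-05) and 3.69-fold in CTR (adjusted p = 0.000786). Homer2, a scaffold of calcium signalling complexes, had 0.806, 0.823, 0.295 and 2.03 CPM in GLLP at PND540, against 8.93, 13.3 and 9.89 CPM at PND21. The CTR libraries gave 0.754, 0.905, 0.885, 1.4 and 0.508 CPM at PND540, against 4.82, 6.3, 4.59 and 5.98 CPM at PND21. Homer2 was the gene with the largest fall of the list in GLLP, 10.8-fold (log2 -3.43, SE 0.55; adjusted p = 0.00142), and fell 6.02-fold in CTR (adjusted p = 0.000249). Skeletal muscle markers fell beside it in GLLP, 8 of 8 called lower with a summed 6.94 to 12.2 CPM at PND540, against 386 to 679 CPM at PND21. In CTR 1 of 6 tested was called lower and 1 higher, with a summed 7.35 to 21.6 CPM at PND540, against 13.1 to 19.7 CPM at PND21. The part of these markers in the fall of Homer2 was not tested. The microtubule protein gene Map7, the Ras GTPase scaffold gene Iqgap2, the ubiquitin ligase gene Herc3, the recycling endosome GTPase gene Rab4a and the vesicle protein gene Tpd52 did not pass in either diet, with log2 fold changes of -0.34 (Tpd52) to 0.34 (Iqgap2) in GLLP and -0.42 (Map7) to 0.06 (Iqgap2) in CTR.

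The signalling genes that fell were a kinase anchor and a guanylate cyclase subunit. Akap12 (gravin), which anchors protein kinases A and C, had 36.3, 16, 26.8 and 45.1 CPM in GLLP at PND540, against 118, 146 and 114 CPM at PND21. In CTR it had 11.6, 30.5, 17.2, 24.4 and 22.3 CPM at PND540, against 108, 78.6, 117 and 89.1 CPM at PND21. The ages were far apart in both diets, and the fall was 4.08-fold in GLLP and 4.62-fold in CTR (adjusted p = 0.00112 and 0.000281). Gucy1a1, a subunit of the nitric oxide receptor, averaged 2.78 ± 1.91 and 1.57 ± 0.691 CPM in GLLP and CTR at PND540, against 15.3 ± 2.86 and 11.2 ± 1.99 CPM at PND21, a fall of 5.48-fold and 7.03-fold (adjusted p = 0.00343 and 0.000309). Smooth muscle markers fell beside them: 7 of 8 were called lower in GLLP and 6 of 8 in CTR, and their summed level was 686 to 1740.2 and 576 to 1721 CPM in GLLP and CTR at PND540, against 3809 to 4407 and 3486 to 4081 CPM at PND21. Fibroblast and matrix markers summed to 165 to 633 and 73.8 to 473 CPM at PND540, against 5749 to 7222 and 4016 to 5938 CPM at PND21, and endothelial markers, of which 4 of 5 tested were called lower in GLLP and 3 of 5 in CTR, to 25.8 to 61.1 and 20.9 to 51.9 CPM at PND540, against 94.3 to 115 and 90.2 to 98.4 CPM at PND21. None of these markers was at 0 in all libraries. Their part in the fall of Akap12 and Gucy1a1 was not tested, and in bulk tissue fewer cells of a type and less RNA per cell cannot be told apart.

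Ndrg1, a stress and differentiation gene regulated by androgen and hypoxia, had 37.1, 48.3, 19.7 and 40.5 CPM in GLLP at PND540, against 16.4, 20.9 and 18.8 CPM at PND21. CTR glands had 19.1, 31.8, 26.6, 61 and 36.7 CPM at PND540, against 15.6, 13, 17.9 and 12.7 CPM at PND21. In GLLP the lowest old gland lay just below the highest young gland, while in CTR the ages did not overlap. It rose 1.94-fold in GLLP and 2.37-fold in CTR (adjusted p = 0.0277 and 0.0154). The call in GLLP was lost in 5 of 7 fits that left out a library, and in CTR without replicate 2 or 4 of PND21 (adjusted p = 0.0522 and 0.0528).

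Bmpr1b, a type I receptor for bone morphogenetic proteins, had 78.7, 111, 104 and 75.4 CPM in GLLP at PND540, against 37.6, 42.4 and 21.6 CPM at PND21, a rise of 2.71-fold (adjusted p = 0.00212). The CTR values were 50.2, 101, 79.1, 40.2 and 9.45 CPM at PND540, against 37.5, 33.6, 55 and 49.4 CPM at PND21, and did not pass (adjusted p = 0.638). The old CTR glands ranged from far below to far above the young ones. Lifr, the receptor for leukaemia inhibitory factor, had a log2 fold change of 1.78 in GLLP that did not pass (adjusted p = 0.0674), with 33.8, 9.63 and 2.71 CPM in the young GLLP glands. The efferocytosis receptor gene Mertk, the calcium-dependent kinase gene Camkk2, the focal adhesion kinase gene Ptk2b, the phosphoinositide phosphatase gene Inpp4b, the TGF-beta signalling inhibitor gene Pmepa1 and the apoptosis regulator gene Tnfaip8 were called in neither diet, with log2 fold changes of -0.93 (Mertk) to 1.11 (Inpp4b) in GLLP and -0.72 (Mertk) to 1.21 (Tnfaip8) in CTR.

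Cell division genes were represented by D cyclins and their kinase. Ccnd1 (cyclin D1), which drives entry into S phase, had 55.2, 27.9, 73.9 and 83.9 CPM in GLLP at PND540, against 214, 211 and 199.9 CPM at PND21. For CTR the values were 77.9, 48.9, 60.8, 84.4 and 133 CPM at PND540, against 193, 195, 184 and 229 CPM at PND21. All old glands were below all young glands, CTR replicate 5 being the closest. Ccnd1 fell 3.48-fold in GLLP (adjusted p = 0.00232) and 2.47-fold in CTR (adjusted p = 0.00477). Its relatives did not pass: Ccnd3 (cyclin D3) had log2 fold changes of -0.32 and 0.10, the partner kinase gene Cdk6 0.84 and -0.03, and the ribosome assembly gene Rrp12 -0.12 and -0.08, in GLLP and CTR. Proliferation markers were lower beside Ccnd1, 6 of 7 of them called in each diet, with a summed level of 138 to 175 and 129 to 183 CPM in GLLP and CTR at PND540, against 368 to 533 and 346 to 536 CPM at PND21; their part in it was not tested.

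Of the transport genes, 1 was called in both diets and 3 more in GLLP. Stk39, the kinase that controls chloride cotransporters, averaged 107 ± 10.5 and 109 ± 12.9 CPM in GLLP and CTR at PND540, against 166 ± 24.7 and 158 ± 12.9 CPM at PND21, and fell 1.56-fold and 1.45-fold (adjusted p = 0.00934 and 0.0195). Its call was lost in GLLP without replicate 3 of PND21 (adjusted p = 0.0562) and in CTR without replicate 3 or 4 of PND21 (adjusted p = 0.0626 and 0.0693). Sgk1, a kinase that raises sodium channel activity, had 16.8, 19.1, 25.6 and 24.4 CPM in GLLP at PND540, against 49.7, 41.3 and 51.2 CPM at PND21, and fell 2.22-fold (adjusted p = 0.00142). In CTR, with 17.8, 18.6, 19.8, 55.5 and 14.6 CPM at PND540, against 17.6, 30.7, 48.9 and 30.2 CPM at PND21, the ages overlapped and it did not pass (adjusted p = 0.598). The sulfate transporter gene Slc26a2 rose 2.85-fold in GLLP (adjusted p = 0.0175, and 0.0616 without GLLP replicate 3 of PND21), with 10.9 ± 1.43 CPM at PND540 and 3.81 ± 2.15 CPM at PND21. The CTR libraries gave 8.59, 12.5, 9.67, 9.8 and 0.547 CPM at PND540, where only replicate 5 lay below the young glands at 4.88, 4.19, 4.39 and 7.48 CPM, and it passed once that library was left out (adjusted p = 0.467 with it and 0.00704 without it). Abcc4, an exporter of cyclic nucleotides and organic anions, rose 1.39-fold in GLLP (adjusted p = 0.0291), a call lost in 4 of 7 fits that left out a library. Slc45a3 (prostein), a prostate-enriched sugar transporter, had 1844 ± 447 and 1638 ± 325 CPM at PND540 and 2017 ± 45 and 2089.7 ± 178 CPM at PND21 in GLLP and CTR (adjusted p = 0.645 and 0.217). The metalloreductase gene Steap4 and the selenium carrier gene Selenop did not pass in either diet, with log2 fold changes of 0.33 and 0.30 for Steap4 and 0.73 and 0.40 for Selenop in GLLP and CTR.

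Of the genes that act on steroid receptors, Pa2g4 was called in both diets and Ncoa4 in GLLP. Fkbp5, an Hsp90 co-chaperone that damps glucocorticoid receptor signalling and is among the most androgen-induced genes of prostate cells, had 809, 877, 1829 and 766 CPM in GLLP at PND540, against 1310.4, 1160 and 1217 CPM at PND21. In CTR it had 857, 1264, 882, 754 and 398 CPM at PND540, against 1046, 1286, 1358 and 1376 CPM at PND21. GLLP replicate 3 was the highest and CTR replicate 5 the lowest of all 16 libraries, and neither age effect passed (log2 -0.21 with SE 0.31 and adjusted p = 0.63 for GLLP, and log2 -0.61 with SE 0.29 and adjusted p = 0.148 for CTR). Pa2g4 (Ebp1), a repressor that can bind the androgen receptor, fell 1.46-fold in GLLP and 1.52-fold in CTR (adjusted p = 0.0125 and 0.0136), with 114 ± 12.3 and 106 ± 15.1 CPM at PND540 and 165 ± 11.4 and 162 ± 12.1 CPM at PND21. Its call was lost in GLLP without replicate 3 of PND21 (adjusted p = 0.0526) and in CTR without replicate 4 of PND21 (adjusted p = 0.0524). Ncoa4 (ARA70), a receptor coactivator that also delivers ferritin to lysosomes, rose 1.45-fold in GLLP (adjusted p = 0.0226), a call lost in 4 of 7 fits that left out a library. CTR glands had 173, 171, 210.1, 137 and 21.9 CPM at PND540 and did not pass (adjusted p = 0.642, and 0.00337 without replicate 5). Zmiz1, a coactivator of the receptor, was not called (log2 fold change 0.33 and -0.04).

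Of 10 metabolic genes, 1 was called in each diet, both lower at PND540. Gpd1l, a glycerol-3-phosphate dehydrogenase, had 25, 23.6, 22.2 and 22.2 CPM in GLLP at PND540, against 92.2, 85 and 88.2 CPM at PND21, and fell 3.83-fold (log2 fold change -1.94, SE 0.12, adjusted p = 8.22e-06). The CTR values were 20, 23.2, 26.9, 15.5 and 0.0391 CPM at PND540, against 78.5, 78, 78.8 and 78.6 CPM at PND21. The value of CTR replicate 5 was 1 read, where the other old CTR glands held 478 to 791 reads. With that library the fall did not pass (log2 fold change -2.19, SE 0.88, adjusted p = 0.0882), and without it the log2 fold change was -1.88 (SE 0.15, adjusted p = 9.34e-06).

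Abhd2, a lipid hydrolase, fell 2.28-fold in CTR (adjusted p = 0.0492). It had 59.9, 77.1, 71.2, 56 and 24.5 CPM at PND540, against 80.5, 77.4, 136 and 233 CPM at PND21, where replicates 3 and 4 were high. That call was lost in 6 of 9 fits that left out a library. The sugar nucleotide genes Pgm3 and Uap1, which make the UDP-N-acetylglucosamine used to glycosylate secreted proteins, were called in neither diet. Pgm3 averaged 31.9 ± 4.63 and 32.5 ± 7.07 CPM in GLLP and CTR at PND540 and 34.4 ± 1.16 and 34.9 ± 2.05 CPM at PND21, with log2 fold changes of -0.12 (SE 0.15) and -0.10 (SE 0.19). The same held for the galactosyltransferase gene B4galt1, the fructose-making Sord, the retinoic acid enzyme gene Aldh1a3, the prostaglandin dehydrogenase gene Hpgd, the lipid phosphatase gene Plpp1 and the acyl-CoA carrier gene Dbi, none of which passed, with adjusted p of 0.0549 (Dbi) to 0.948 (B4galt1) in GLLP and 0.0794 (Plpp1) to 0.436 (Aldh1a3) in CTR.

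The proteases went in different directions. Tmprss2, a membrane serine protease of luminal cells and a classical androgen target, had 286, 361, 227 and 417 CPM in GLLP at PND540, against 179, 120.1 and 189 CPM at PND21. For CTR the values were 308, 319.7, 343, 458 and 672 CPM at PND540, against 243, 188, 222 and 151 CPM at PND21. Old and young glands did not overlap within either diet, and CTR replicate 5 was the highest. It rose 1.97-fold in GLLP and 2.09-fold in CTR (adjusted p = 0.0153 and 0.015). Without GLLP replicate 3 of PND21 the adjusted p was 0.0668, and without CTR replicate 2 or 4 of PND21 it was 0.0505 or 0.0541. Adamts1, which cleaves matrix proteoglycans, fell 2.97-fold in GLLP (adjusted p = 0.0114, and 0.0518 without GLLP replicate 3 of PND21), with 22.2, 15.5, 11.5 and 33 CPM at PND540 and 43.8, 91.3 and 47.6 CPM at PND21, and did not pass in CTR (adjusted p = 0.595). Luminal markers were higher at PND540 beside Tmprss2, 5 of 10 of them called in each diet, and their part in its rise was not tested.

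The number of calls depended on single libraries. Without CTR replicate 5 of PND540, 25 of 52 genes (48.1%) were called in CTR, 12 higher and 13 lower, against 49% of all tested genes in that fit, so the share was again that of the background. These were the 13 called with it and 12 more, namely Slc26a2, Ncoa4, Maf, Ell2, Tnfaip8 and Hpgd higher and Gpd1l, Uap1, B4galt1, Plpp1, Dbi and Tpd52 lower at PND540. Of those 25, 16 were also called in GLLP in the same direction. Without CTR replicate 4 of PND21, 7 genes (13.5%) were called in CTR, against 22.4% of all genes, and without GLLP replicate 3 of PND21, 12 (23.1%) were called in GLLP, against 24.8% of all genes.

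Other genes of the pathway give the setting. Of 17 tested pathway genes, among them cofactors, chaperones and 5-alpha-reductases, 4 rose and 2 fell with age in GLLP (35.3%, against 36.2% of all genes). In CTR 2 rose and 1 fell (17.6%, against 30.5% of all genes). The chaperone gene Hsp90aa1, called higher in both diets, had 7.44, 12.7, 6.64 and 5.48 CPM in GLLP and 14.4, 5.76, 5.89, 5.59 and 2.31 CPM in CTR at PND540, against 0, 0 and 0 CPM in GLLP and 0, 0, 0.0335 and 0 CPM in CTR at PND21. No fold is given for it, since like Col1a2 it was at or near 0 in all young libraries. The co-chaperone gene Ptges3 and the coactivator genes Ncoa2 and Ncoa3 rose in GLLP (log2 0.59, 1.69 and 0.82; adjusted p = 0.00524, 0.0116 and 0.0132). In CTR the chaperone gene Hsp90ab1 rose (log2 0.99, adjusted p = 0.0118) and the 5-alpha-reductase gene Srd5a1 fell (log2 -0.92, adjusted p = 0.035). Srd5a1 was lower at PND540 in GLLP too, with 7.08 to 11.65 CPM, against 13.7 to 21.5 CPM at PND21, so its fall was not particular to CTR. Hsp90ab1 was higher in GLLP too, with 1508 to 2983 CPM, against 1164 to 1354 CPM at PND21. Ptges3 was higher in CTR too, with 142 to 172 CPM, against 118 to 130 CPM at PND21. Ncoa2 in CTR had 34.8, 66.55, 40.9, 50 and 1.99 CPM, against 21.9 to 29.2 CPM at PND21. Only replicate 5 was lower there. Ncoa3 overlapped in CTR, with 18.3 to 175 CPM, against 103 to 147 CPM at PND21. Of 46 tested genes that are counted as androgen-responsive elsewhere but lie outside the 53, 13 rose and 6 fell in GLLP (41.3%), and 8 rose and 7 fell in CTR (32.6%), near the background. Among them the signal peptidase gene Spcs3 fell 5.93-fold and 13-fold in GLLP and CTR (adjusted p = 0.000165 and 0.00154), as did the centromere protein gene Cenpn, 3.67-fold and 2.45-fold (adjusted p = 0.000707 and 0.0011).

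Promoter sequences were looked up in RefSeq (build GRCr8), as windows from 250 bases before to 50 bases after each annotated start, which were given for 40 of the 53 genes. Those of the genes with the largest changes in both diets and a window are shown, Pdlim5 and Eaf2 (higher at PND540) and Gucy1a1 and Akap12 (lower), since they moved together across ages in both diets. Capitals mark GGGCGG or its reverse complement CCGCCC, the GC box bound by Sp1-type factors; the androgen receptor core hexamer AGAACA (reverse complement TGTTCT) and the forkhead motif TGTTTAC (reverse complement GTAAACA) would also be in capitals but were not found in these 4 windows.
Pdlim5 (chr2:233793427-233793726, minus strand): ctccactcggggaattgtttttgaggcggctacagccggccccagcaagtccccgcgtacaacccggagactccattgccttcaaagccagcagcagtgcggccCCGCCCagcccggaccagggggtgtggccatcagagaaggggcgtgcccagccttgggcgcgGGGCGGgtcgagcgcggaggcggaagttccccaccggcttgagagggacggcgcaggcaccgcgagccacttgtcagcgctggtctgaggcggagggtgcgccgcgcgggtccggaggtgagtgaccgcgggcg
Eaf2 (chr11:77465335-77465634, plus strand): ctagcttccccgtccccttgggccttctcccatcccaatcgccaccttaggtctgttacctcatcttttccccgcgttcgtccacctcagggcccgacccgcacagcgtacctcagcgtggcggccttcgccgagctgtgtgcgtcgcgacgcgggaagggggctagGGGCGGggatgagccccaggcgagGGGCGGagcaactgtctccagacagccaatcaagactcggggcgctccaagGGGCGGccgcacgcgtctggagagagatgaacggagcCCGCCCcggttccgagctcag
Gucy1a1 (chr2:169779574-169779873, minus strand): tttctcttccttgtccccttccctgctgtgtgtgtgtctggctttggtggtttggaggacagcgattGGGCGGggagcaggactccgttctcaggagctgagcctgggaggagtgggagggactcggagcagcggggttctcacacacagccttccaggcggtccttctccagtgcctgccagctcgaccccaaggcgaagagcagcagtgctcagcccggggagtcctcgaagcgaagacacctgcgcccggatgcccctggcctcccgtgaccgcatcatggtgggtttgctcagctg
Akap12 (chr1:43135265-43135564, plus strand): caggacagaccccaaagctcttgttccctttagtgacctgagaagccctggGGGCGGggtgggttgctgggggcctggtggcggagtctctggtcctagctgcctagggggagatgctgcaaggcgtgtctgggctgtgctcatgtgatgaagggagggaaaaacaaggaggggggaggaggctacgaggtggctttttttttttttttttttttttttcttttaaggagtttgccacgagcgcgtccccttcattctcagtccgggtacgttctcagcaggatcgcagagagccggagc

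The GC box was found in windows of 34 of the 40 genes (85%), against 36% of all 27457 genes with a window and 61.4% of those tested here. The full androgen response palindrome, which joins the hexamer and its reverse complement across a short spacer, was in 0 of the 40 (0.00728% of all genes), and the forkhead motif in 2, Map7 and Selenop (5%, against 4.13% of all genes and 2.46% of tested genes). The core hexamer was in 3 of the 40 (7.5%), against 21.6% of all genes and 13.4% of tested genes. Those stretches are shown with the hexamer in capitals, as the only exact matches to it in these windows. Imperfect matches were not searched for. None of the 3 genes was called in an age comparison with all libraries.
Dbi (chr13:33802830-33802859, minus strand): ctgtcccgacccAGAACAtccaccccactg
Elk4 (chr13:46004015-46004044, plus strand): cgaatgtccggtAGAACAggagccctggga
Hpgd (chr16:39035050-39035079, minus strand): gtcagaggcttgAGAACAaatcctgctggg

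A match is a stretch of letters in this window and not a binding site, and a window without a match says nothing of elements elsewhere.

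The diet comparison at PND21 asks whether the maternal low protein diet is seen in these genes at weaning. Homer2 was the only androgen-responsive gene called, 1 of 52 (1.92%), against 1.11% of 14915 tested genes in either direction and 1.01% higher. It had 8.93, 13.3 and 9.89 CPM in GLLP, against 4.82, 6.3, 4.59 and 5.98 CPM in CTR. All 3 GLLP libraries lay above all 4 CTR libraries, and Homer2 rose 1.98-fold (log2 0.98, SE 0.19; adjusted p = 0.0495). The call was lost in 6 of 7 fits that left out a library, where the adjusted p was lowest without GLLP replicate 4 (0.0574) and highest without GLLP replicate 3 (0.227), and it held without GLLP replicate 2 (adjusted p = 0.0161). Skeletal muscle markers stood at a summed 386 to 679 CPM in GLLP, against 13.1 to 19.7 CPM in CTR, with 8 of 8 called higher and none at 0 in all libraries. Fibroblast and matrix markers stood at 5749 to 7222 CPM in GLLP, against 4016 to 5938 CPM in CTR. Of these, 0 of 6 were called and 4 had an unadjusted p under 0.05, against 19.3% of all genes. Basal markers (5 of 5 positive) and leukocyte markers (5 of 6 positive) each had 3 at such a p and 0 called. Luminal markers had 5 positive and 5 negative log2 fold changes, and adipocyte markers 1 positive and 3 negative. The part of these markers in the rise of Homer2 was not tested.

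**Figure D5:**
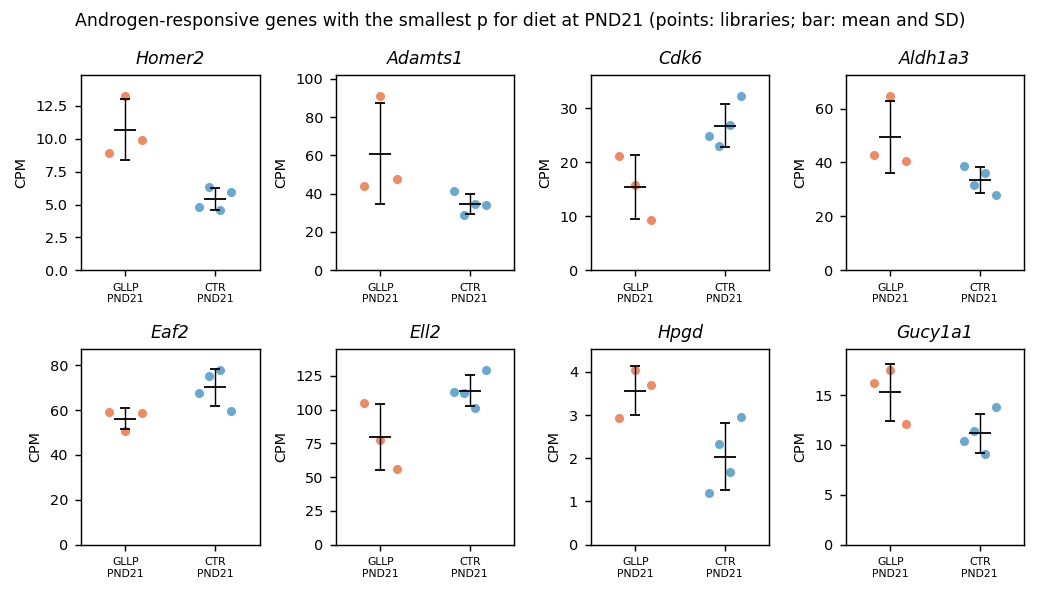
Each panel is an androgen-responsive gene, from the 8 with the smallest p for diet at PND21; points are libraries in CPM from 0 (GLLP on the left, CTR on the right), and the black bars give the mean and SD. Homer2 passed the test (adjusted p = 0.0495) and the other 7 did not.

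The remaining genes did not pass at PND21. Adamts1 had 43.8, 91.3 and 47.6 CPM in GLLP, against 41.5, 28.8, 34.7 and 34.3 CPM in CTR, with no overlap (log2 fold change 0.81, SE 0.25, adjusted p = 0.147). Cdk6 had 21.2, 15.7 and 9.35 CPM in GLLP, against 24.9, 23, 26.8 and 32.4 CPM in CTR, also with no overlap (log2 fold change -0.79, SE 0.25, adjusted p = 0.149). Aldh1a3, an enzyme that makes retinoic acid, had 42.8, 64.9 and 40.6 CPM in GLLP, against 38.8, 31.8, 35.9 and 27.8 CPM in CTR (log2 fold change 0.56, adjusted p = 0.153). Eaf2 had 59.1, 50.7 and 58.6 CPM in GLLP, against 67.7, 75.2, 78 and 59.8 CPM in CTR (log2 fold change -0.32, adjusted p = 0.183). In all, 6 of 52 genes (11.5%) had groups without overlap: Homer2, Adamts1, Aldh1a3 and Gpd1l above and Cdk6 and Eaf2 below CTR, against 17.4% of 13363 genes tested and named in both tables (9.6% above and 7.77% below). At an unadjusted p under 0.05 there were 10 of 52 genes, against 19.3% of all genes, and the median log2 fold change was -0.01 against -0.00 over all genes, with 26 positive and 26 negative values. Without GLLP replicate 2, 6 of 53 genes (11.3%) were called, against 9.96% of all genes in that fit: Homer2 and Adamts1 higher, and Cdk6, Ell2, Lifr and B4galt1 lower.

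GLLP replicate 4 was low for several genes at this age. Lifr had 33.8, 9.63 and 2.71 CPM in GLLP replicates 2, 3 and 4, against 27.1, 27.4, 30.6 and 37.9 CPM in CTR, and Ell2 had 105, 77.4 and 55.9 CPM in GLLP, against 113, 112, 101 and 129 CPM in CTR. Replicate 4 was the lowest of the 7 libraries for both, as it was for Zbtb16 and Zbtb10, and replicate 2 lay within the CTR range for Lifr and Ell2. Neither gene passed (adjusted p = 0.459 and 0.191). Values of the well known androgen targets Fkbp5, Slc45a3 and Camkk2 did not pass: Fkbp5 averaged 1229 ± 75.9 CPM in GLLP and 1266 ± 152 CPM in CTR (log2 fold change -0.04, SE 0.12), Slc45a3 2017 ± 45 CPM in GLLP and 2089.7 ± 178 CPM in CTR (-0.05, SE 0.11), and Camkk2 14 ± 0.76 CPM in GLLP and 14 ± 0.724 CPM in CTR (0.00, SE 0.11). Of 46 other androgen-responsive genes, only the lipid synthesis gene Idi1 was called, lower in GLLP (2.17%, against 1.11% of all genes, 0.107% lower). As a group the 46 leaned low, with 31 negative log2 fold changes and a median of -0.14. In GLLP, 10 of them lay wholly below CTR and 0 above (21.7% without overlap). Of all genes named in both tables, 7.77% lay below and 9.6% above.

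At PND540 none of the 52 genes differed between GLLP and CTR by edgeR, none had an unadjusted p under 0.05, and none had groups without overlap; DESeq2 called 0 of them as well. Among all 14767 tested genes 0% were called (2 genes by DESeq2), 0.833% had an unadjusted p under 0.05, and 0.42% of those named in both tables had groups without overlap (0.143% above and 0.278% below). The smallest p-values were those of Gucy1a1 (log2 fold change 0.82, SE 0.50), Akap12 (0.55, SE 0.35), Selenop (0.55, SE 0.37), Bmpr1b (0.73, SE 0.50) and Abhd2 (0.50, SE 0.35), each with an adjusted p of 0.914. Selenop, which carries selenium in plasma, had 149, 62.3, 78.8 and 168 CPM in GLLP, against 50.6, 128, 73.2, 92.4 and 46.8 CPM in CTR, and both groups held high and low glands. The median log2 fold change was 0.15 with 35 positive and 17 negative values, against -0.00 over all genes, and it lay between 0.07 (without CTR replicate 5) and 0.28 (without CTR replicate 4; 0.24 without CTR replicate 2) when a library was left out. The spread was wide at this age, with a biological coefficient of variation of 48.5% (19.8% for the young glands). In simulated counts of this comparison, 3.23% of genes changed 2-fold and 44.8% of those changed 4-fold were recovered.

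The median coefficient of variation of the 52 genes was 26.3% in GLLP and 37% in CTR at PND540 (22.2% without CTR replicate 5), and 15.8% in GLLP and 12.3% in CTR at PND21, beside 23.4%, 41%, 16.5% and 10.8% over all tested genes. The gene and marker values that follow are those of PND540. Aldh1a3 had 17.7, 5.79, 10.9 and 51.4 CPM in GLLP and 10.5, 24.9, 15.3, 42.4 and 0.625 CPM in CTR, so that GLLP replicate 4 and CTR replicate 4 were highest. Maf had 25.3, 19.9, 11.5 and 57.2 CPM in GLLP and 11.3, 39.4, 22.3, 41.9 and 12.3 CPM in CTR, with GLLP replicate 4 again highest and CTR replicates 2 and 4 above the other CTR glands. Tnfaip8, induced by tumour necrosis factor, had 8.83, 7.91, 6.02 and 36.2 CPM in GLLP and 12.1, 10.5, 9.29, 16.9 and 38.6 CPM in CTR. Leukocyte markers (9 of 10 found) summed to 43.5 to 112 CPM in GLLP and 48.6 to 146 CPM in CTR, the highest value of each being replicate 4, and their part in these genes was not tested. Of the 52 genes at PND540, Zbtb16 in GLLP (2.73%) and Tsc22d1 in CTR (5.1%) varied least.

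The interaction, which asks whether the diet effect differs between the ages, was called for 0 of 52 genes by edgeR, against 0.0917% of 14180 tested genes, and 2 genes had an unadjusted p under 0.05 (5.17% of all genes; DESeq2 called 0). These were Ell2 and Cdk6. The log2 difference of Cdk6 was 0.88 (SE 0.41, adjusted p = 0.738): it had 27.8 ± 7.55 CPM in GLLP and 26.1 ± 8.07 CPM in CTR at PND540, and 15.4 ± 5.94 CPM in GLLP and 26.8 ± 4.03 CPM in CTR at PND21. The next were Abhd2 (1.05, SE 0.56), Lifr (1.63, SE 0.91) and Map7 (0.69, SE 0.42), none of which passed. Homer2, called for diet at PND21 and with 0.806, 0.823, 0.295 and 2.03 CPM in GLLP and 0.754, 0.905, 0.885, 1.4 and 0.508 CPM in CTR at PND540, had an interaction of -0.83 (SE 0.61, adjusted p = 0.738), so that a difference of its diet effect between the ages was not shown.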

How the data were processed

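Raw counts, whole numbers per gene without normalization, were deposited by the authors as a table for PND540 and a table for PND21. STAR, edgeR 3.34.0 and Rnor_6.0 appear in the submitters' processing notes, with no roles; which counter, annotation and strand setting gave the counts is not given in the sources used here. At PND21, 25 entries with date-like or repeated names were left unnamed.

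Counts were analysed with edgeR 4.0.16 in R 4.3.3 (filterByExpr, TMM, robust quasi-likelihood fits, Benjamini-Hochberg adjustment over all tested genes, threshold 0.05). Diet was fitted within each age, age within each diet on names found in both tables, and the interaction on all 16 libraries. An SE is the log2 fold change divided by the square root of F. CPM is on 1 TMM scale over 16 libraries. The fits were tested on simulated counts. Alternatives were other scalings, DESeq2 1.42.0, other filters, a non-robust fit, a joint fit, a replicate block and leaving out each library. Replicates differed beyond sampling noise (chi-square per degree of freedom of at least 30.3). In each comparison called genes were named by p, up to 12 in each direction, or the 5 with the smallest p where fewer than 5 were called, and from other lists up to 4 called genes; the rest are given by role. Values of 2 genes from the other lists are not reported here. The genes and lists were chosen with earlier results of these data known. Figures were drawn with matplotlib 3.10.9.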

Additional observations from a re-analysis of the deposited data

Results flagged for a closer look

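In 156 groups of 4 or 5 libraries (the 52 genes in each group but GLLP at PND21, which has 3), 14 held a highest or lowest library that lay far from the others relative to the range of its group; chance gives about 1 in 20 such groups. CTR replicate 5 of PND540 accounted for 5: Ccnd3 (196 CPM), Tnfaip8 (38.6 CPM) and Tpd52 (504 CPM) were high there, and Ptk2b (36.8 CPM) and Map7 (25.2 CPM) low. In the other old glands, Sgk1 was high in CTR replicate 4 (55.5 CPM, next 19.8 CPM), Fkbp5 in GLLP replicate 3 (1829 CPM, next 877 CPM), and Tnfaip8 (36.2 CPM) and Hpgd (5.79 CPM) in GLLP replicate 4. In the young CTR glands, replicate 4 was high for Ncoa4 (126 CPM), Zbtb10 (26.5 CPM) and B4galt1 (377 CPM), replicate 3 for Elk4 (111 CPM) and replicate 2 for Camkk2 (15.1 CPM).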

How the results depend on the processing

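For the 34 calls of single genes, 536 refits under the alternatives gave 475 that kept the call, 61 that lost it and 0 that turned its direction. At PND21 the count of genes called for diet (1) was 3 with DESeq2 (Homer2, Adamts1 and Cdk6; 5.77%, against 6.52% of all genes), 2 with library size alone (Homer2 and Gpd1l; 3.85%, against 4.36%), and 0 with a filter at 1 CPM, a non-robust fit or the joint fit of 16 libraries. Leaving out a library gave 0 to 6 at PND21. For diet at PND540 and the interaction the count was 0 in each fit run. The count for age was 12 to 25 in GLLP (20 with all) and 7 to 25 in CTR (13 with all) when a library was left out. Library size alone gave 8 higher and 15 lower genes with age in GLLP, where TMM gave 11 and 9; it put the median of all genes at -0.16 there (0.02 with TMM), and at 0.14 for diet at PND21 (-0.00 with TMM). A replicate block gave 0 genes for diet at PND21, 17 for age in GLLP (32.7%, against 27.9% of all genes) and 23 for age in CTR (44.2%, against 44.5%). A library whose replicate number is in only 1 of the groups compared does not bear on the fold change in such a fit. For diet at PND21 this was CTR replicate 1, and for age in GLLP it was GLLP replicate 1 of PND540. For age in CTR it was CTR replicate 5 of PND540. Leaving out that CTR library without a block gave 25 genes (48.1%, against 49% of all genes). Correlations of the deviations of same-numbered libraries ran from -0.17 to 0.3, the highest being that of replicate 4 for diet at PND540. The numbers are not stated to pair animals and are not taken to do so. The depth allowed every gene of the list but Mak to be tested. In simulated counts, changes of 1.5-fold were recovered in 18.1% of cases for diet at PND21 and in 0% for the other comparisons. Few genes were changed in them (59 of 13515 by 1.5-fold for age in GLLP), so the adjustment was stricter than in the age fits. Those called 36.2% of all genes in GLLP and 30.5% in CTR, with changes as small as 1.39-fold (Abcc4 in GLLP). The 0% therefore does not carry over to the age fits.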

Other observations

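Of 10 tested glucocorticoid-responsive genes, from a response known to share Fkbp5, Zbtb16 and Sgk1 with that to androgen, 3 were called with age in each diet. That is 30%, against 36.2% of all genes in GLLP and 30.5% in CTR, so the share was not above the background. Tsc22d3 (GILZ), a leucine zipper mediator of glucocorticoid action, fell 2.1-fold in GLLP (adjusted p = 0.00653) and 2.81-fold in CTR (adjusted p = 0.000225), with 115, 103, 195 and 102 CPM in GLLP and 116, 124, 121, 115 and 79.6 CPM in CTR at PND540, against 264, 264 and 276 CPM in GLLP and 261, 296, 367 and 326 CPM in CTR at PND21. The metallothionein gene Mt1 was called higher at PND540 in both diets (adjusted p = 0.017 in GLLP and 0.00388 in CTR), with 24.7, 31, 14.2 and 11.7 CPM in GLLP and 64, 17.8, 14.8, 16.4 and 112 CPM in CTR at PND540, against 4.12, 6.18 and 9.7 CPM in GLLP and 3.63, 3.18, 4.65 and 4.39 CPM in CTR at PND21. In CTR the mean at PND540 was 11.4 times that at PND21, and 7.13 times without replicate 5 of PND540, the highest library.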
